A study of Arabidopsis thaliana with 6 samples.

Results

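The 41 genes described here encode the enzymes and regulators that turn phenylalanine into lignin precursors, flavonols and anthocyanins in Arabidopsis thaliana. They were taken by locus, and each had 1 probe among the 21500 probes of an array. They fall into 8 entry enzymes, 7 enzymes of the monolignol branch, 9 members of the cinnamyl alcohol dehydrogenase (CAD) family, 6 flavonol enzymes, 5 anthocyanin enzymes and 6 regulators.

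Phenylalanine ammonia-lyase (PAL) opens the pathway by removing the amino group of phenylalanine, cinnamate 4-hydroxylase (C4H) and 4-coumarate:CoA ligase (4CL) then make coumaroyl-CoA, and from there carbon goes either to monolignols, the building blocks of lignin, or through chalcone synthase (CHS) to flavonoids. Flavonols are colourless leaf pigments that absorb ultraviolet light, and anthocyanins are the red and purple pigments of stressed shoots. Both are switched on by light through MYB transcription factors, and lignin and other phenylpropanoids are also laid down during defence against pathogens.

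Each of 6 arrays with 2 colours compared a control RNA labelled with Cy3 with a treated or transgenic RNA labelled with Cy5, from 28-day plants sampled without their roots. On 4 arrays, 1 per time, Columbia plants treated with 5 mM salicylic acid (SA), the hormone of defence against biotrophic pathogens, for 2, 5, 10 or 24 h were set against untreated plants. On the other 2 arrays, plants overexpressing SIBA (AT3G56710, SIB1 in the reference table, a protein that binds a plastid sigma factor) were set against a plant carrying the vector; the labels name the overexpressors CA32F3 and CA32F4, called line 1 and line 2 here. The labels give neither the promoter of the construct, nor whether the lines came from separate transformations, nor the hour at which any control was harvested, nor whether arrays shared a control RNA.

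Every ratio given below is on the log2 scale, Cy5 plant over the control of the same array, so that 1 stands for 2-fold higher and -1 for 2-fold lower. A gene was called changed when limma's moderated test gave a Benjamini-Hochberg adjusted p under 0.05 over all probes tested together with a mean change of at least 2-fold. SIB1 itself stood at 5.25 and 5.59 in lines 1 and 2. It was also above the control after SA, at 4.46, 3.71 and 2.89 at 2, 5 and 10 h. PR1, the classical SA marker, gave 0.10, 0.71, 2.47 and 2.89 over the 4 times. The 2 h array and both overexpressor arrays were dimmer than the rest, their median Cy5 signals being 21.5, 79 and 84 above local background and those of the other arrays 206.5 to 404, and their files come in a different column layout. Precision is limited throughout by how few arrays there are, the SA test rests on the spread between times, and nothing in the labels says that the arrays are biological replicates, so the p-values measure no more than how far these samples differ from each other, possibly for technical reasons. No member was saturated on any array, and 8 of the 41 held a surrogate value of the scanner software, which it sets near the detection limit, on at least 1 array.

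Over the 4 SA times, 1 of the 41 genes was called higher (CAD1) and 2 were called lower (CAD9 and UGT78D1). Among all 21280 probes tested, 2.8% were called higher and 0.954% lower, 3.75% in all. The remaining 38 genes were not called, with adjusted p-values from 0.0766 upward. The median SA mean was -0.20 over the 41 genes and -0.01 over all probes tested. Of the 39 genes with a value at every SA time, 10 were below 0 at all 4 times (25.6%, against 17% of all probes) and 3, namely CAD1, CAD5 and CAD8, were above 0 at all 4 (7.69%, against 19.6%). All calls rest on few arrays: without the 5 h or the 10 h array limma called 0 of all probes (3763 and 4673 probes had an unadjusted p under 0.05), and without the 24 h array it called 154. Where each array was centred on its median in place of the loess curve, 1040 probes were called higher and 86 lower, in place of 596 and 203.

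**Figure D1:**
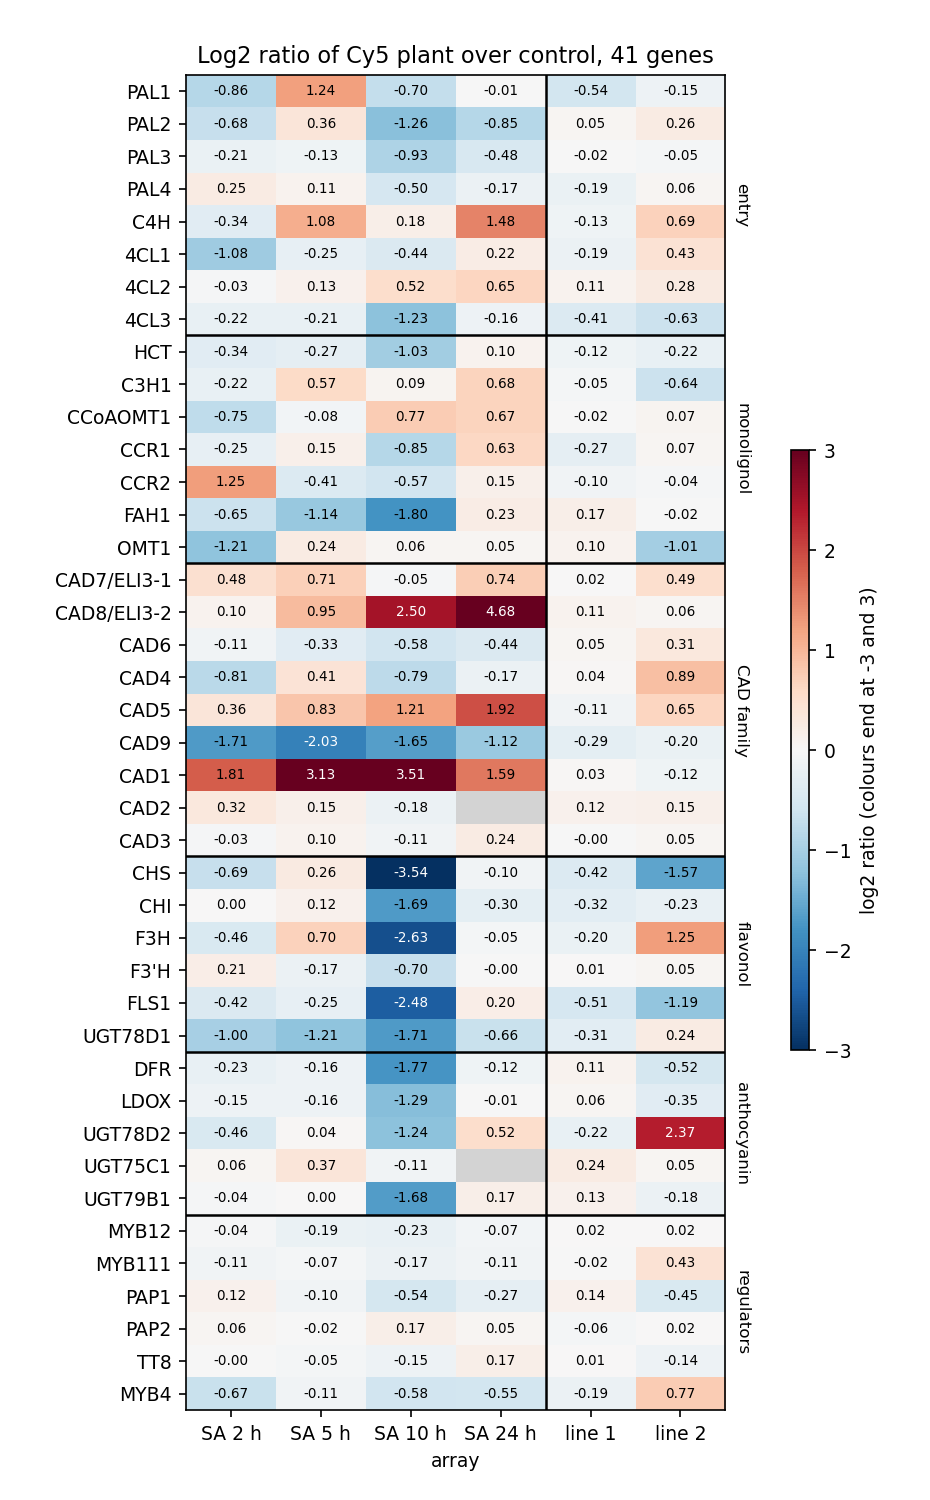
Log2 ratio of the Cy5 plant over its control for the 41 genes (rows, grouped by branch) on the 6 arrays (columns), with the value printed in each cell; blue is lower and red is higher than the control, and grey cells are spots left out for an outlier mark. In the 10 h column 9 of the 11 flavonol and anthocyanin enzymes lie below -1, while CAD1 and CAD8 hold the highest ratios of the SA arrays.

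Counted at single arrays, the pathway stood apart mainly at 10 h. At least 2-fold lower were 14 genes at 10 h (4.43% of all probes), with 3 at least 2-fold higher (7.3% of all probes). At 2 h there were 4 lower and 2 higher (2.31 and 3.84% of all probes), at 5 h 3 lower and 3 higher (3.66 and 6.09%), and at 24 h 1 lower and 4 higher (5.63 and 5.31%). Under 5 other scalings or filters the members at least 2-fold lower numbered 0 to 6 at 2 h, 2 to 3 at 5 h, 11 to 18 at 10 h and 0 to 1 at 24 h, and those higher 2 to 4, 3 to 4, 3 and 4 to 7. Of the 14 genes lower at 10 h, 9 belonged to the flavonol and anthocyanin branches. The median over the 41 genes was -0.21, 0.00, -0.58 and 0.05 at 2, 5, 10 and 24 h, with medians over all probes between -0.01 and 0.02.

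The CAD family held both the highest and the lowest SA means of the 41 genes. CAD enzymes reduce cinnamyl aldehydes to the alcohols that are polymerised to lignin, with CAD4 and CAD5 carrying most of this activity in Arabidopsis stems; CAD7 and CAD8, also named ELI3-1 and ELI3-2, are known as genes activated by elicitors of defence. CAD1 (AT1G72680), a family member whose role in lignin is less well known, was above its control throughout, with log2 ratios of 1.81, 3.13, 3.51 and 1.59 after 2, 5, 10 and 24 h of SA, while line 1 gave 0.03 and line 2 gave -0.12. The difference between the SA and overexpressor values of CAD1 was not called (limma adjusted p = 0.203). Its SA mean of 2.51 ± 0.95 (SD, n = 4 times), or 5.70-fold, was called by limma (adjusted p = 0.0323). The Cy5 signal above background was 337, 1595, 3857 and 2225 over the 4 times and the control signal was 73, 119, 170 and 387. The call was lost without the 5, 10 or 24 h array (limma adjusted p = 0.124, 0.0871 and 0.0762), with means from 2.18 to 2.82.

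CAD9 (AT4G39330) was on the other side. It gave -1.71, -2.03, -1.65 and -1.12 over the SA times and -0.29 and -0.20 in lines 1 and 2. As scaled here, every SA value lay at least 2-fold under the control. This did not hold under all of the 5 other scalings or filters. Under at least 1 of them 0 members, CAD9 included, were 2-fold lower at 2 h, and the same was found at 24 h. The SA mean was -1.63 ± 0.38 (SD, n = 4 times), a ratio of 0.324 to the control (limma adjusted p = 0.0193). Without the 5 h or the 10 h array the call was lost (limma adjusted p = 0.0785 and 0.0747), with means of -1.49 and -1.62. Under other processing the call was kept, with means from -1.77 to -1.28.

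CAD8 (AT4G37990, ELI3-2) had the widest span of the 41 genes. The SA series ran 0.10, 0.95, 2.50 and 4.68, and the lines gave 0.11 and 0.06, each later SA time being higher than the one before. The Cy5 signal above background was 7.6, 77, 582 and 3495, against 39.9, 22.8, 49 and 49.9 in the controls, so that the ratios followed the treated plants while the control stayed near the detection limit. The treated spot at 2 h and both spots in line 1 held surrogate values, so the 2 h and line 1 ratios lie at the detection limit. At 5 and 10 h the control spot was not well above background, and the ratios are bounds of at least 1.93-fold and at least 5.66-fold. The mean of 2.06 ± 2.01 (SD, n = 4 times) was not called by limma (adjusted p = 0.194). The slope on log2 of hours, 1.29 per doubling of time, was the highest of 21280 probes, and it did not pass the trend test either (limma adjusted p = 0.961). On the authors' deposited ratios CAD8 did pass, with a mean of 3.35 (limma adjusted p = 0.0445).

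The neighbours of CAD8 did not share these values. CAD7 (AT4G37980, ELI3-1), the next protein-coding gene in the reference table, gave 0.48, 0.71, -0.05 and 0.74 after SA and 0.02 and 0.49 in the lines. CAD6 (AT4G37970), which lies beside CAD7, gave -0.11, -0.33, -0.58 and -0.44 after SA and 0.05 and 0.31 in the lines. The control signal above background was 756 to 4649 for CAD7 and 54.3 to 94 for CAD6 on the SA arrays. Neither was called (limma adjusted p = 0.145 and 0.0963), and how far the probes of these related genes detect each other's transcripts was not tested.

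Of the stem lignin enzymes, CAD5 (AT4G34230) had values in the same order as CAD8, with 0.36, 0.83, 1.21 and 1.92 over the SA times and -0.11 and 0.65 in the lines. Its mean of 1.08 ± 0.66 (SD, n = 4 times) missed the threshold (limma adjusted p = 0.0811), and it passed under median centring (1.40, adjusted p = 0.0314) and with a smaller background offset (1.13, adjusted p = 0.0474). CAD4 (AT3G19450) gave -0.81, 0.41, -0.79 and -0.17, with 0.04 and 0.89 in the lines. The 2 enzymes thus lay on opposite sides of 0 at 3 of the 4 SA times. CAD2 and CAD3 stayed between -0.18 and 0.32 on every array with a value.

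**Figure D2:**
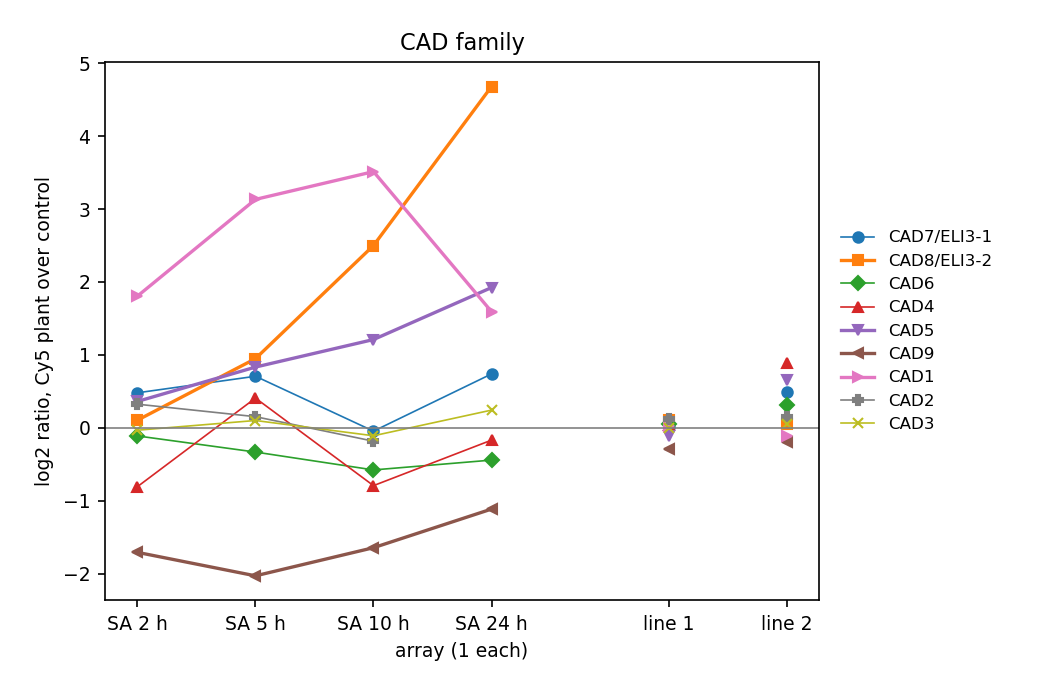
Log2 ratios (vertical axis) of the 9 CAD family genes on the 4 SA arrays, joined by lines over time, and on the 2 overexpressor arrays; each point is 1 array and the horizontal line marks no difference from the control. CAD1 is at 1.59 or more and CAD9 at -1.12 or less at every SA time, CAD8 and CAD5 are highest at 24 h, at 4.68 and 1.92, and all 9 genes lie between -0.29 and 0.89 in the lines.

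None of the 8 entry enzymes was called. PAL1 and PAL2, the main shoot ammonia-lyases, both had their highest ratio at 5 h: PAL1 (AT2G37040) gave -0.86, 1.24, -0.70 and -0.01, and PAL2 (AT3G53260) gave -0.68, 0.36, -1.26 and -0.85. Each was below its control at the other 3 times, and the lines gave -0.54 and -0.15 for PAL1 and 0.05 and 0.26 for PAL2. Ranked within its array, the PAL1 control stood at the 97.65th, 77.87th, 95.38th and 89.6th percentile over the SA times. The SA channel of PAL1 stood at the 94.93rd, 90.32nd, 90.54th and 89.26th. For PAL2 the control was at the 96.18th, 86.81st, 95.83rd and 93.84th, and the SA channel at the 93.03rd, 89.09th, 86.91st and 87.32nd. In both genes the control thus ranked lowest at 5 h, and the SA channel ranked highest at 2 h. PAL3 lay between -0.93 and -0.13 at all SA times and PAL4 between -0.50 and 0.25. C4H (AT2G30490), the cytochrome P450 of the second step, had the highest SA mean of the entry enzymes, with -0.34, 1.08, 0.18 and 1.48 over the SA times and -0.13 and 0.69 in the lines. The mean of 0.60 ± 0.83 (SD, n = 4 times) was not called by limma (adjusted p = 0.341), and PAL2, the lowest of the branch at -0.61 ± 0.69 (SD, n = 4 times), was not called either (adjusted p = 0.258).

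The 4CL isoforms differed among themselves. 4CL1 and 4CL2 are the ligases tied to lignin and soluble phenolics, and 4CL3 the one tied to flavonoids. 4CL1 ranged from -1.08 at 2 h to 0.22 at 24 h, 4CL2 from -0.03 at 2 h to 0.65 at 24 h, and 4CL3 was at -0.22, -0.21, -1.23 and -0.16, lowest at 10 h like the flavonoid enzymes described below. 4CL2 was near background on the 2 h array in both channels. In the lines the 3 genes lay between -0.63 and 0.43. The median over the entry enzymes was -0.28, 0.12, -0.60 and -0.08 at 2, 5, 10 and 24 h.

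Monolignol enzymes were called in neither direction (0 of 7; smallest limma adjusted p = 0.212). FAH1 (AT4G36220), ferulate 5-hydroxylase, which opens the way to sinapate esters and syringyl lignin, was the lowest of the branch, with -0.65, -1.14, -1.80 and 0.23 over the SA times and 0.17 and -0.02 in the lines. It was at least 2-fold lower at 5 and 10 h and above its control at 24 h, and the mean was -0.84 ± 0.85 (SD, n = 4 times; limma adjusted p = 0.212). C3H1 (AT2G40890, CYP98A3), the hydroxylase that acts on coumaroyl esters, was the highest, with -0.22, 0.57, 0.09 and 0.68, and -0.05 and -0.64 in the lines.

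Single arrays picked out 3 further monolignol genes. CCR2, the cinnamoyl-CoA reductase known from responses to pathogens, was at 1.25 at 2 h and between -0.57 and 0.15 at the later times, while CCR1, the isoform of lignifying tissue, gave -0.25, 0.15, -0.85 and 0.63. OMT1, the caffeate O-methyltransferase, was at -1.21 at 2 h and between 0.05 and 0.24 later, and at 0.10 and -1.01 in lines 1 and 2. HCT, the transferase that makes the esters used by C3H1, was at -1.03 at 10 h and between -0.34 and 0.10 otherwise. CCoAOMT1, the O-methyltransferase acting on caffeoyl-CoA, gave -0.75, -0.08, 0.77 and 0.67. All 7 genes were above 0 at 24 h, from 0.05 to 0.68, as were 10469 of 19778 probes. At 2 h, 6 of the 7 were below 0, as were 11367 of 21490 probes.

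The flavonol and anthocyanin enzymes were set apart by the 10 h array. All 11 were below 0 there, 9 of them at least 2-fold (4.43% of all probes), and the median was -1.69, against -0.23, 0.00 and -0.03 at 2, 5 and 24 h. CHS (AT5G13930, TT4), the first enzyme of the flavonoid route, gave -0.69, 0.26, -3.54 and -0.10 over the SA times. F3H (AT3G51240), which hydroxylates flavanones, gave -0.46, 0.70, -2.63 and -0.05. FLS1 (AT5G08640), flavonol synthase, gave -0.42, -0.25, -2.48 and 0.20. In each of the 3 genes the 10 h array was more than 4-fold under its control while the other 3 times stayed within 2-fold. None of them was called over the 4 times: limma's adjusted p was 0.431, 0.573 and 0.411, with means of -1.02 ± 1.73, -0.61 ± 1.43 and -0.74 ± 1.19 (SD, n = 4 times). The median SA mean of the 11 enzymes was -0.47, and -0.06 without the 10 h array.

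Most of the other enzymes of the route gave like values at 10 h. Chalcone isomerase CHI (TT5) was at -1.69 at 10 h and between -0.30 and 0.12 at the other times. DFR, LDOX, UGT78D2 and UGT79B1, which make and glycosylate anthocyanins, were at -1.77, -1.29, -1.24 and -1.68 at 10 h and between -0.46 and 0.52 otherwise. For DFR the treated spot was not well above background at 10 h, which leaves a bound of at least 3.09-fold lower. The 2 exceptions at 10 h were F3'H (TT7), the hydroxylase that leads to quercetin and cyanidin, at -0.70, and UGT75C1, the anthocyanin 5-O-glucosyltransferase, at -0.11.

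The separate channels were read next. For CHS the control signal above background was 315, 152, 2096 and 217 at 2, 5, 10 and 24 h, while the SA signal was 237, 214, 283 and 306. These signals are not scaled for brightness, and the 2 h array was the dimmest. Among the probes of its own array, the CHS control stood at the 92.7th, 46.8th, 95.2nd and 44.6th percentile at 2, 5, 10 and 24 h, and at the 83.95th and 83.94th in the vector controls. The SA channel of CHS stood at the 87.0th, 50.8th, 48.6th and 42.8th percentile. Ranked within its array, the CHS control was thus high at 2 and 10 h and near the middle at 5 and 24 h, and the SA channel was high at 2 h and near the middle later.

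Channel levels were then compared between the 10 h array and the mean of the 5 and 24 h arrays, which share its layout, after quantile normalization of brightness. This comparison was chosen after the values had been seen and has no replicates. Against 5 and 24 h, the CHS control was higher at 10 h by a log2 difference of 3.52, the highest of 19745 probes with a value. The F3H and FLS1 controls followed at 2.39 and 1.98, ranks 6 and 14. Of the 10 flavonoid enzymes with a value, 7 had a control at least 2-fold higher at 10 h (0.977% of all probes), and 0 had an SA signal at least 2-fold lower (1.17% of all probes), with SA differences between -0.56 and 0.22. The SA signals of DFR and LDOX stood only at the 5.28th to 7.86th percentile at 5 and 24 h, and UGT79B1 at the 24.8th and 28.9th. A 2-fold fall could hardly show in such dim spots, so the 0 does not show that the SA channel was unchanged. Entry and monolignol enzymes had the same sign to a lesser degree, with 14 of 15 controls higher at 10 h and a median difference of 0.72, against 0.01 over all probes; the highest was PAL1 at 1.50.

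Set against the 2 h array, which is dimmer and has the other layout, the 10 h channels gave different values. The CHS control was higher at 10 h by 0.53 and the FLS1 control by 1.102, whereas the F3H and UGT78D2 controls were below those of 2 h, at -0.23 and -0.39. In the SA channel, CHS, F3H, FLS1 and UGT78D2 were at -2.31, -2.41, -0.96 and -1.17 against 2 h. Of the 11 flavonoid enzymes, 2 had a control at least 2-fold higher at 10 h than at 2 h (10.8% of all probes), and 6 had an SA signal at least 2-fold lower (9.23% of all probes). The 2 controls were those of FLS1 and of UGT75C1 (2.10), whose control level split by column layout, as described at the end. Of the 15 entry and monolignol enzymes, 5 had a control higher at 10 h than at 2 h, against 8644 of 21465 probes. Which channel of the 10 h array stood apart thus differed with the array it was read against. How the controls of the arrays relate in harvest time or growth is not given in the labels, so SA and the harvest of the control cannot be told apart at 10 h.

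**Figure D3:**
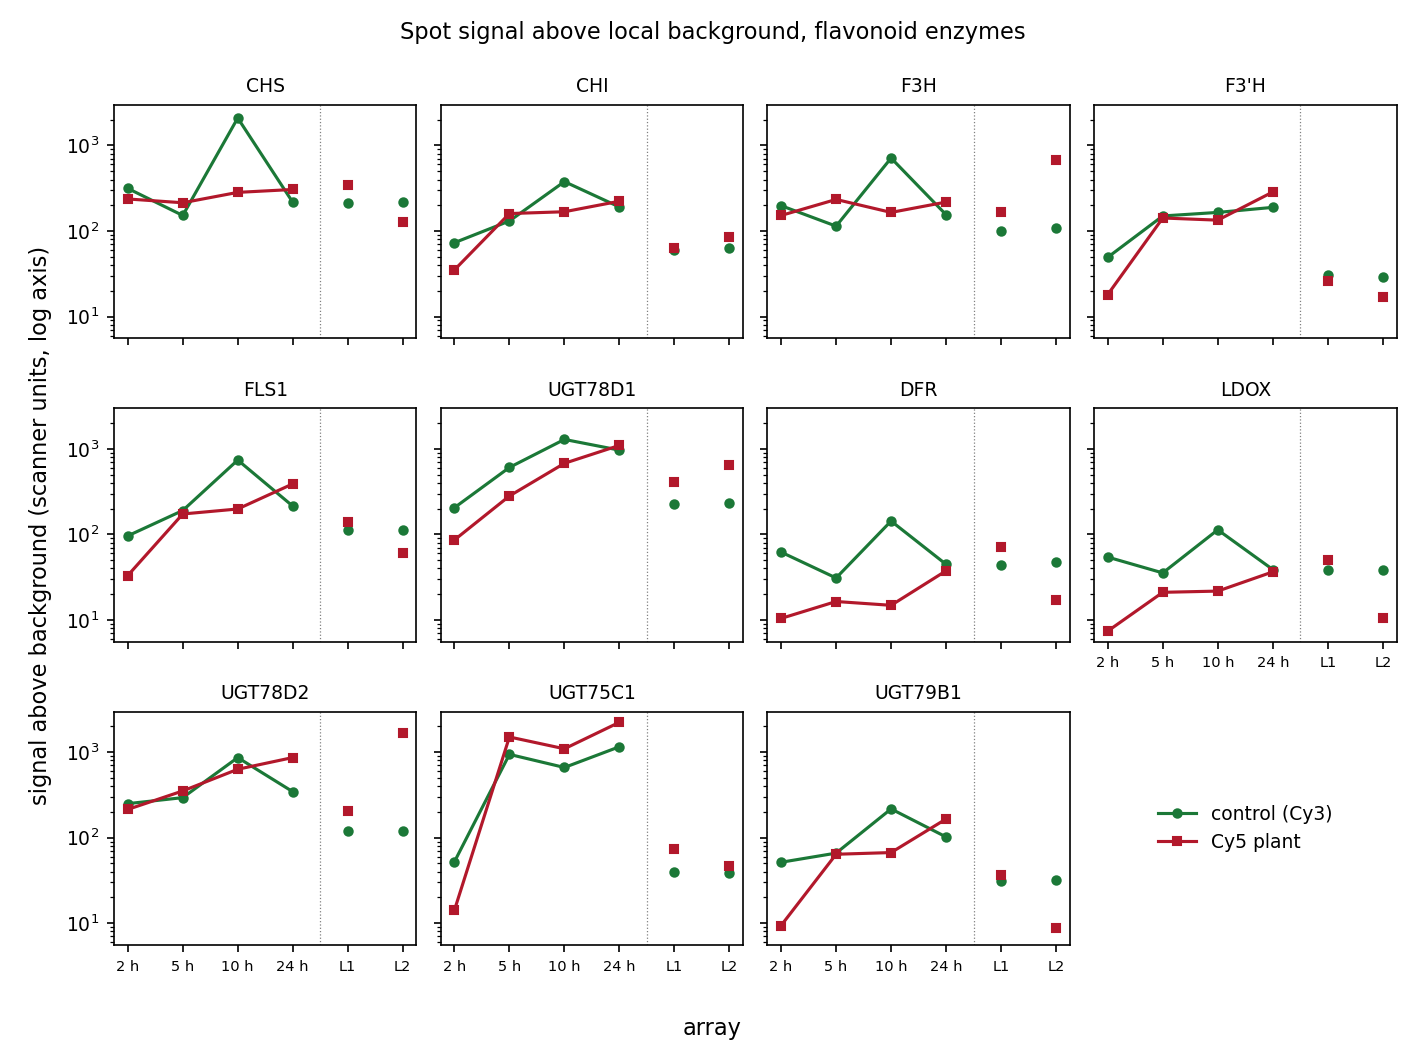
Spot signal above local background (log axis, scanner units) of the 11 flavonol and anthocyanin enzymes in the control channel (green circles) and the Cy5 channel (red squares) on the 4 SA arrays and on lines 1 and 2 (L1, L2); each point is 1 array, and brightness differs between arrays. For CHS the control reaches 2096 at 10 h against 152 to 315 at the other times, while the SA signal lies between 214 and 306, the 2 h array being the dimmest of the 4. The 24 h spot of UGT75C1 was marked as an outlier.

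UGT78D1 (AT1G30530), which attaches rhamnose to flavonols, was the flavonoid gene whose SA values did not hang on 10 h alone. It gave -1.004, -1.21, -1.71 and -0.66 over the SA times and -0.31 and 0.24 in the lines. The mean of -1.15 ± 0.44 (SD, n = 4 times), a ratio of 0.452, was called by limma (adjusted p = 0.0352). The call was lost whichever of the 4 SA arrays was left out (limma adjusted p from 0.0661 to 0.140, means from -1.31 to -0.96), and under median centring (-0.88, adjusted p = 0.0516). Its control, too, was higher at 10 h than at 5 and 24 h, by 0.99.

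Regulators stayed near their controls, and none was at least 2-fold from its control on any array, with a range of -0.67 to 0.77. MYB12 and MYB111, activators of flavonol genes, stayed between -0.23 and -0.04 after SA, including 10 h, where their values were -0.23 and -0.17. PAP1, an activator of anthocyanin genes, gave 0.12, -0.10, -0.54 and -0.27, and its paralogue PAP2 (MYB90) was between -0.02 and 0.17. TT8, the bHLH partner of these MYBs, was between -0.15 and 0.17. MYB4, a repressor of C4H and other phenylpropanoid genes, gave -0.67, -0.11, -0.58 and -0.55 after SA and -0.19 and 0.77 in the lines, with an SA mean of -0.48 ± 0.25 (SD, n = 4 times) that was not called (limma adjusted p = 0.0766). Signals of MYB12, MYB111, PAP1, PAP2 and TT8 were low, with controls between 24.8 and 88 above background on every array, so that changes in them were hardly measurable, and the 2 h ratios of MYB12, MYB111, PAP2 and TT8 rest on surrogate values in 1 or both channels.

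In the overexpressors, limma called 0 of the 41 genes and 0 of 21482 probes (0%). The smallest limma adjusted p over all probes was 0.664, and SIB1 itself was among the probes not called. Because the test on 2 arrays missed even the overexpressed gene, 0 of 41 does not show that these genes were unchanged. Without adjustment, 3 of the 41 genes and 995 of all probes (4.63%) had a limma p under 0.05. With 1 array per line the lines are described side by side. In line 1 none of the 41 genes was at least 2-fold from its control (0.191% of all probes higher, 0.0838% lower), with values from -0.54 to 0.24. In line 2, 2 were higher (1.88% of all probes) and 3 lower (2.26%). These line 2 counts became 8 and 0 under median centring and 5 and 8 on the scanner ratios, and line 1 then had 0 to 1 lower. No member reached 2-fold in 1 direction on both arrays. Of all probes 0.158% did, a share at which 0 of 41 genes does not stand apart.

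The line 2 values belonged mostly to flavonoid enzymes and went both ways. UGT78D2 (AT5G17050), the glucosyltransferase that serves flavonols and anthocyanins, was at 2.37 in line 2 and -0.22 in line 1. F3H was at 1.25 and -0.20. On the lower side CHS was at -1.57 in line 2 and -0.42 in line 1, and FLS1 at -1.19 and -0.51. CHS and F3H, enzymes of the same route, thus lay on opposite sides of the vector control in line 2. The Cy5 signal of UGT78D2 was 207 in line 1 and 1671 in line 2 over a control of 119 on both arrays, and that of F3H was 168 and 685 over controls of 100 and 109.

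The controls of the 2 lines gave closely similar signals. Over 10760 probes above background the control signals correlated at r = 0.997, with an SD of 0.11 between their log2 values, as a description across probes of 1 pair of arrays. Controls of any other pair of arrays correlated at 0.751 to 0.940 (SD from 0.555 to 1.16), and the 2 overexpressor channels at 0.911 (SD 0.71). The differences between the lines in UGT78D2, F3H, CHS, FLS1 and OMT1 therefore lay in the Cy5 channel, with line 2 minus line 1 at 2.63, 1.63, -1.20, -0.79 and -1.01 there and between -0.11 and 0.17 in the controls. Dimmer members differed more between the controls, MYB12 most, at -0.32. Whether the vector control was 1 RNA on both arrays is not given in the labels; if so, the lines share their control and the overexpressor p-values leave out its spread.

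**Figure D4:**
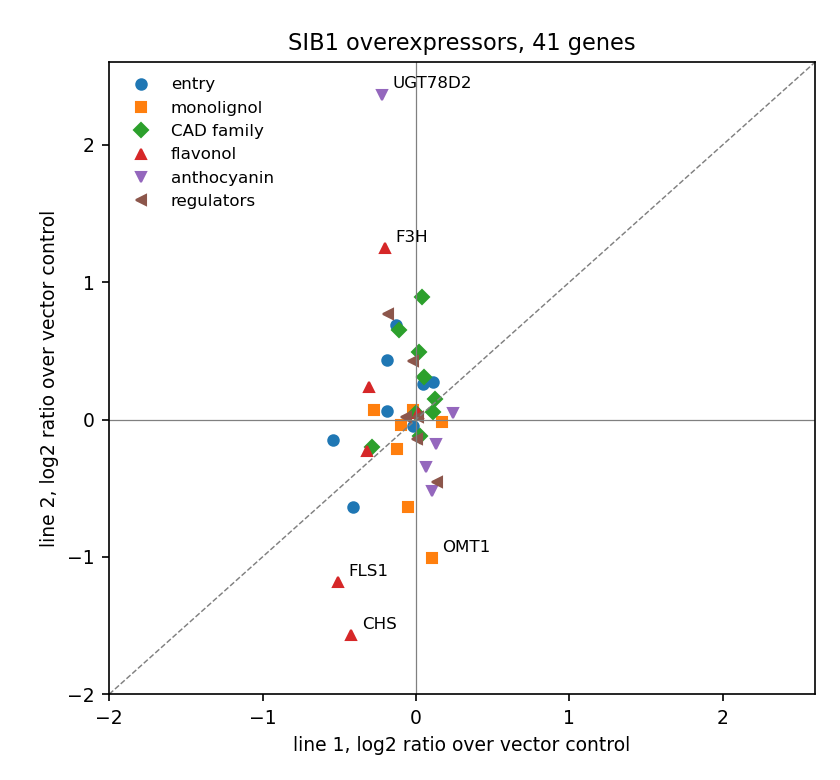
Log2 ratio over the vector control of the 41 genes in line 1 (horizontal axis) and line 2 (vertical axis), coloured by branch, with the 5 genes at least 2-fold from the control in line 2 named; the dashed line marks equal values. Values span -0.54 to 0.24 in line 1 and -1.57 to 2.37 in line 2.

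No member was called for a trend over SA time (0 of 21280 probes called, 0%; 980, or 4.61%, had an unadjusted p under 0.05, 5 of them members) or for a difference between SA and overexpression. Of 21482 probes, 14 (0.0652%) were called for the difference. CAD9, CAD1 and UGT78D1 differed most clearly among the 41 genes, with SA minus overexpressor at -1.38, 2.56 and -1.11, and did not pass (limma adjusted p = 0.146, 0.203 and 0.262).

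A wider list of 54 pathway genes, of which 52 had a probe and 51 were tested for SA, gave 2 called higher and 1 called lower. Among all probes tested, 2.8% were called higher and 0.954% lower. KFB01, an F-box protein of the group that marks PAL for degradation, was at 1.34, 2.98, 2.43 and 3.06 over the SA times and at 0.19 and 0.12 in the lines, a mean of 2.45 ± 0.79 (SD, n = 4 times; limma adjusted p = 0.0264). UGT72B1, a glucosyltransferase that takes up monolignols and foreign phenols, was at 3.19, 3.04, 1.28 and 1.97, and at -0.44 and 0.37 in the lines (mean 2.37 ± 0.91, SD, n = 4 times; limma adjusted p = 0.0329). Both were at least 2-fold higher at every SA time and within 2-fold in the lines. SCPL10, the acyltransferase that adds sinapoyl groups to anthocyanins, was at -0.73, -0.83, -1.57 and -1.17, and at -0.45 and -1.25 in the lines (mean -1.08 ± 0.38, SD, n = 4 times; limma adjusted p = 0.0316). SNG1, its neighbour in the reference table, which makes sinapoylmalate, gave -0.69, -0.91, -1.10 and -0.89; the mean of -0.90 ± 0.17 (SD, n = 4 times) had an adjusted p of 0.0193 but stayed under 2-fold. KFB01 lost its call without the 5, 10 or 24 h array (limma adjusted p from 0.0878 to 0.107), UGT72B1 without any of the 4 (0.0593 to 0.124), and SCPL10 without the 5, 10 or 24 h array (0.0748 to 0.113) and under median centring, where its mean was -0.89.

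The other 48 tested genes of the wider list were not called. The median SA mean was 0.04 over 13 further lignin genes, 0.20 over 12 genes of soluble esters and glucosides, -0.14 over 13 further flavonoid genes and -0.01 over 13 further regulators. The lowest of the lignin genes was the laccase LAC11 (-0.27), the highest of the flavonoid genes the laccase-like TT10 (0.04), and the regulators ran from SPL9 (-0.39) to LBD37 (0.57). Genes picked after their values had been seen were 4CL5, the ligase that accepts sinapate, at 0.52, 2.54, 1.22 and 1.05, and F6'H1, the enzyme that opens the route to scopoletin, at 0.10, 2.46, 2.57 and 1.33, neither of which passed (limma adjusted p = 0.0889 and 0.109). The control of F6'H1 was not well above background at 10 h, a bound of at least 5.38-fold. Among flavonoid genes outside the 41, the chalcone isomerase-like CHIL and the anthocyanin carrier TT19 were at -2.33 and -2.13 at 10 h, and their controls, too, were higher at 10 h than at 5 and 24 h, by 1.52 and 1.23; against 2 h the differences were 0.0064 and 0.53.

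Marker lists for the tissue were read beside these values. The green shoot genes RBCS1A and LHCB1.1 were saturated in at least 1 channel on every array. RCA, the activase of Rubisco, was saturated in 1 channel at 10 and 24 h and gave -0.73, -0.08, -0.94 and -0.12 after SA and -0.03 and 0.50 in the lines; it was not called (limma adjusted p = 0.193 after SA). Of 10 genes of xylem and fibre walls, the tissue in which most lignin is laid down, none was called after SA or in the lines; their median was -0.04, -0.02, -0.32 and -0.22 at 2, 5, 10 and 24 h, and for the overexpressors it was -0.05 and -0.06. Their summed control signal was 775, 4534, 3510 and 5799 on the SA arrays in order of time, and 667 and 677 on the overexpressor arrays. These sums are not scaled for brightness. The median control signal of all probes was 60, 171.5, 174 and 260 on the SA arrays and 50.7 and 53 on the overexpressor arrays. At 24 h only 7 of the 10 genes had a ratio, and the sum there includes spots marked as outliers. Of 6 root genes 1 was called lower after SA (PYK10, -1.06), and 7 flower and 6 seed genes gave no call, with median control signals between 23.9 and 86. In whole shoots, fewer cells of a type and less RNA per cell cannot be told apart.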

How the data were processed

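Gene expression was measured on 6 Agilent arrays with 2 colours. The deposited array files hold, per the file headers, the mean intensity of each spot, the median intensity of its local background, flags and the scanner software's log10 ratio of Cy5 over Cy3; the deposited series table holds the authors' ratio per probe, with a normalization not given in the sources used. Intensities were corrected with limma's normexp (offset 50) and loess (R 4.3.3, limma 3.58.1). Control probes were removed, and any spot marked as an outlier was left out of the ratios and tests. Signals above background, their percentiles and the channel correlations kept such spots. Tests used lmFit and eBayes on log2 ratios against 0, which leaves out the spread of any control RNA shared between arrays, with Benjamini-Hochberg adjustment over all probes: 4 SA arrays, 2 overexpressor arrays, a slope on log2 of hours, and a difference over 6 arrays. Tested probes had 1 channel or more well above background on 2 arrays and 3 of 4 values (SA), both values (overexpressors) or 4 of 6 (difference). Dyes were not swapped. The code was tested on simulated data. Members, lists and tests were chosen with earlier results of these data known. Given in full are called members, members at least 2-fold on 3 SA arrays or both lines or at least 4-fold on 1 array, and the highest and lowest of each branch; others were added after their values were seen. Names and neighbours come from a RefSeq table of assembly TAIR10.1. The files name no build, so no coordinates are given. Figures were drawn with matplotlib 3.10.9.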

Additional observations from a re-analysis of the deposited data

How the results depend on the processing

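Each ratio pairs a plant with the control of its own array. The SA times have 1 array each, and the labels give no further pairing between the SA and the overexpressor arrays. Of 41 genes, SA calls numbered 1 higher and 2 lower. They were 2 higher under median centring, a normexp offset of 16 and the authors' ratio table, 1 lower under median centring and within 1 column layout, and 0 to 1 in each direction when an array was left out. Over all probes median centring gave 1040 SA calls up and 86 down, and there were 897 and 367 with the offset of 16, 923 and 463 on the scanner ratios, 893 and 532 on the authors' ratios, and 0 to 610 higher and 0 to 209 lower without 1 array. Overexpressor calls by median centring were 406 up and 6 down, CAD4 among them (1.12, limma adjusted p = 0.0479, 1 of 41 genes), and 1 with a variance trend. Difference calls, 13 higher and 1 lower, became 74 and 19 (median centring, which shifts all probes by 0.13), 76 and 5 (offset 16), 60 and 11 (scanner ratios), 32 and 3 (authors' ratios), 7 and 0 (saturated spots left out), 29 and 1 (well above background in both channels), 33 and 1 (variance trend), 0 to 58 and 0 to 3 without 1 array, and 0 and 0 with the layout as a term. Trend calls stayed at 0 in all 13 alternatives, and no member was called for the difference in 16. Branch medians of the SA mean moved by less than their spread over times, except the regulators (-0.12), at -0.29, -0.22, -0.30 and -0.21 under median centring, offset 16, scanner and authors' ratios. Overexpressor medians, all near 0, moved by more than their spread over the lines, except in the entry and flavonol enzymes. In those branches they stayed within it in all 7 alternatives. For monolignol enzymes (-0.10) they were 0.49, -0.13 and -0.19 under median centring, offset 16 and the authors' ratios, and -0.050 to -0.038 with 1 line. For the CAD family (0.13) they were 0.38, 0.26, 0.24 and 0.25 under median centring, offset 16, scanner and authors' ratios, and 0.029 to 0.15 with 1 line. For anthocyanin enzymes (-0.03) they were -0.36 and -0.26 under median centring and scanner ratios. For regulators (0.00) they were -0.45, 0.094, 0.060 and 0.016 under median centring, scanner ratios, authors' ratios and unsaturated probes above background, and -0.0068 to 0.017 with 1 line. The cause of these shifts was not tested. The count of flavonoid enzymes at least 2-fold lower at 10 h was 8 to 10 under 5 alternatives, and that of controls at least 2-fold higher at 10 h was 7 to 9 under 3 and 1 of 10 when the 2 h array alone was the reference, all chosen after seeing the data. Surrogate values or spots not well above background limit CAD8 on 4 arrays, MYB12, PAP2 and TT8 on 2 each, and 4CL2, CCR2, DFR, LDOX and MYB111 on 1.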

Other observations

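After CHS, the probes with the largest excess of the 10 h control over the controls of 5 and 24 h belonged to LHY (2.81), COL2 (2.66) and GBSS1 (2.62), and RUP2 (2.07), a repressor of ultraviolet-B signalling, ranked 10th. These 4 genes were at 4.02, 3.12, 3.00 and 2.43 in line 2 and between -0.55 and -0.02 in line 1. They were chosen after their values were seen, and others of the same 20 probes with the largest excess lay on the other side: in line 2, 12 of the 20 were at least 2-fold higher, 5 at least 2-fold lower, CHS (-1.57), FLS1 (-1.19), LEA3 (-1.37), XTH31 (-2.21) and ARGAH2 (-1.55), and 3 within 2-fold.

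The PAL-targeting F-box genes of the wider list differed between the lines as well: KFB20, KFB39 and KFB50 were at 0.47, -0.28 and 0.08 in line 1 and at -2.78, -2.32 and -2.82 in line 2, while KFB01 was at 0.19 and 0.12. MYBL2, a repressor of anthocyanin genes, was at 0.31 and -2.27.

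UGT75C1 stood at the 82.7th to 87.0th percentile of the control channel at 5 and 10 h. At 2 h and in both vector controls it stood at the 40.2nd to 43.0th percentile. Its 24 h spot, at the 87.0th percentile, was marked as an outlier and gave no ratio. The split follows the column layout of the files, and its cause was not tested. UGT75C1 was not alone in it. The control of TT2, a regulator of the wider list, stood at the 75.7th, 68.4th and 60.5th percentile at 5, 10 and 24 h. At 2 h and in the vector controls it stood at the 9.9th to 20th. The xylem marker NST3, part of the control sums above, was at the 79.9th and 70.8th at 5 and 10 h. Its control was at the 1.9th to 29.3rd at 2 h and in the vector controls.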
